A study of Homo sapiens with 16 samples.

Results

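Glycogen metabolism in LN229 cells was followed through 9 genes, taken from both deposited tables by Entrez identifier and matched to symbols. They are *UGP2*, *GYG1*, *GYS1* and *GBE1* of synthesis, *PPP1R3B* and *PPP1R3C* of its control, *PGM1*, which serves both directions, and *PYGL* and *PYGB* of breakdown. The list was set by function, by a choice made with earlier results of these data known. All 9 were listed in both tables, which hold 13559 genes (first experiment) and 14024 genes (second), and no filter on low values was applied here.

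LN229 is an established human glioblastoma (GBM) line, and the ischemic culture combines hypoxia with low nutrients to mimic ischemia in a dish. Glucose, glutamine and serum were lowered in it together with oxygen, so their parts in a difference between cultures cannot be told apart. In the first experiment untreated cells in regular culture were compared with untreated cells in ischemic culture. In the second, cells in each culture received the vehicle DMSO, the p38α inhibitor VX745 or MK25, an inhibitor of MK2, a kinase that p38α activates. Each of these 8 groups holds 2 libraries, 16 in all, and the 4 libraries of the first experiment were normalized apart from the 12 of the second, so levels are compared within an experiment. All groups are the same line without other alteration in their labels, the labels do not say that replicates came from separate cultures, and the p-values below measure the spread between these libraries, which may be technical. The time in ischemic culture is not given for these libraries in the sources used here.

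Glycogen is the branched glucose polymer in which animal cells store sugar. UDP-glucose pyrophosphorylase makes the activated sugar, glycogenin starts the chain, glycogen synthase lengthens it and the branching enzyme adds branch points, while glycogen phosphorylase releases glucose 1-phosphate from the chain ends. Protein phosphatase 1 is brought to glycogen by targeting subunits and there activates the synthase and inactivates the phosphorylase. Hypoxia is known to raise glycogen stores in several kinds of cancer cell.

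CPM are read counts per gene scaled to a library size common to all, and the values below are log2 normalized CPM as deposited. The genes of a library held 20122017 to 37562668 reads in all, and members held between 58 and 91492 reads in a library. A gene with 3 reads, taken as the floor of detection, would have a log2 value between −2.71 and −2.16, and floors cover counting error only. In the second experiment the 6 regular libraries held 20122017 to 30228774 reads and the 6 ischemic libraries 27239609 to 37562668, and the part of this difference in the results was not tested. Of 10 markers of glioma cells, 9 had a mean over 1 CPM in the first experiment and 10 did in the other. Of 15 markers of other cell types 14 were not listed. The remaining one, *SNAP25* of neurons, also had a mean over 1 CPM in both experiments, with at most 157 reads.

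*PPP1R3C* (identifier 5507), *GBE1* (identifier 2632), *GYS1* (identifier 2997) and *PYGL* (identifier 5836) are shown with the bases before their start sites, since the first 3 differed widely between cultures and *PYGL* is a breakdown gene that differed less. Each sequence is the 250 bases before the RefSeq start site in GRCh38.p14, 5′ to 3′ on the strand of the gene, which is the minus strand for all 4. They lie at chr10:91633072-91633321, chr3:81761646-81761895, chr19:48993310-48993559 and chr14:50944484-50944733, in the same order. Capitals mark ACGTG and GCGTG on either strand, the core letters of the element bound by hypoxia-inducible factor (HIF).
PPP1R3C: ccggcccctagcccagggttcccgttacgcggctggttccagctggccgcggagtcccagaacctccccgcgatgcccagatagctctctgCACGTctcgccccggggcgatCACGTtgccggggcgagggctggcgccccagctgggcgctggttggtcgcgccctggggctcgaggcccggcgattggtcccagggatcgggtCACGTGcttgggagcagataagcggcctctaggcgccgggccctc
GBE1: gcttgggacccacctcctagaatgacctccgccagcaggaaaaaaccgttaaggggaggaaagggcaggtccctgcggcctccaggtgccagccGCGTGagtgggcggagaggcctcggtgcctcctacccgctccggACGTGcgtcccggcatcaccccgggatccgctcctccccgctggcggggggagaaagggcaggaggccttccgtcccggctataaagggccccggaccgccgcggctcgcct
GYS1: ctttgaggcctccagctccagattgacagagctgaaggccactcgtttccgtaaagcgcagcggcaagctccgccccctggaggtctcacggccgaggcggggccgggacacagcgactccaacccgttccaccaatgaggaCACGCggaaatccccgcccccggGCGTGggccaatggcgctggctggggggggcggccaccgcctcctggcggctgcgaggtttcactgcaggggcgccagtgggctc
PYGL: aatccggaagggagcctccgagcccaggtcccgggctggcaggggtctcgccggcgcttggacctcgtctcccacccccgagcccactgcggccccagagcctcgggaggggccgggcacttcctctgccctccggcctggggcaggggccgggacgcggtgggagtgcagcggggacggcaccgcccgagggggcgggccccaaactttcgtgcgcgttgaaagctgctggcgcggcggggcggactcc

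Counting the base next to the start site as −1, *PPP1R3C* held 4 matches to ACGTG that begin at −159, −138, −45 and −44. The last 2 overlap, because CACGTG reads the same on both strands. *GBE1* held 1 GCGTG at −156 and 1 ACGTG at −112, *GYS1* held 2 GCGTG at −108 and −85, and *PYGL* held 0 of either. Such letters are common, as 18.5% of 35116 RefSeq promoter windows of this length held ACGTG, 32.2% held GCGTG and 43.2% held either. *PYGB* (2 GCGTG), *GYG1* (2 ACGTG and 1 GCGTG) and *UGP2* (1 ACGTG and 1 GCGTG before 1 start site, 1 GCGTG before another) held matches as well. The fold changes of *PYGB*, *GYG1* and *UGP2* between cultures stayed under 2. *PGM1*, which rose between cultures except with MK25, held 1 ACGTG and 2 GCGTG before 1 start site and 0 of either before its others. The letters before *PPP1R3B*, which differed by more than *GBE1* and *GYS1*, are not reported here, so no pattern over the members can be read from these sequences. A match is a description of these letters and not a site of binding.

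Of the 9 genes, 5 rose in ischemic against regular culture in untreated cells, the same number in DMSO and in VX745, and 4 with MK25, and none fell. A gene is said to rise or fall between cultures when limma gives an adjusted p under 0.05 and the fold change is 2 or more. Of all genes tested, 11.3% rose and 9.10% fell by this rule in untreated cells, 9.03% and 8.11% in DMSO, 9.28% and 5.21% with VX745, and 8.56% and 5.34% with MK25. At an adjusted p under 0.05 and any size, 8 of the 9 were higher in every one of the 4 comparisons, and *GYG1* was lower in 3 of them. By that rule 35.2%, 34.4%, 34.0% and 33.5% of all genes were higher in untreated cells, DMSO, VX745 and MK25, and 35.2%, 35.2%, 32.6% and 33.7% were lower. The ischemic libraries of 8 of the 9 lay above all regular libraries in each experiment, as did those of 42.4% of all genes in the first and 25.8% in the second, while 42.8% and 25.6% of all genes lay below, *GYG1* among them in the first. The median log2 fold change of the 9 was 1.33 in untreated cells, 1.32 in DMSO, 1.06 with VX745 and 0.85 with MK25, where the median of all genes lay between −0.009 and 0.011. In these bulk samples a change in the share of cells and a change in the RNA of each cell cannot be told apart.

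**Figure D1:**
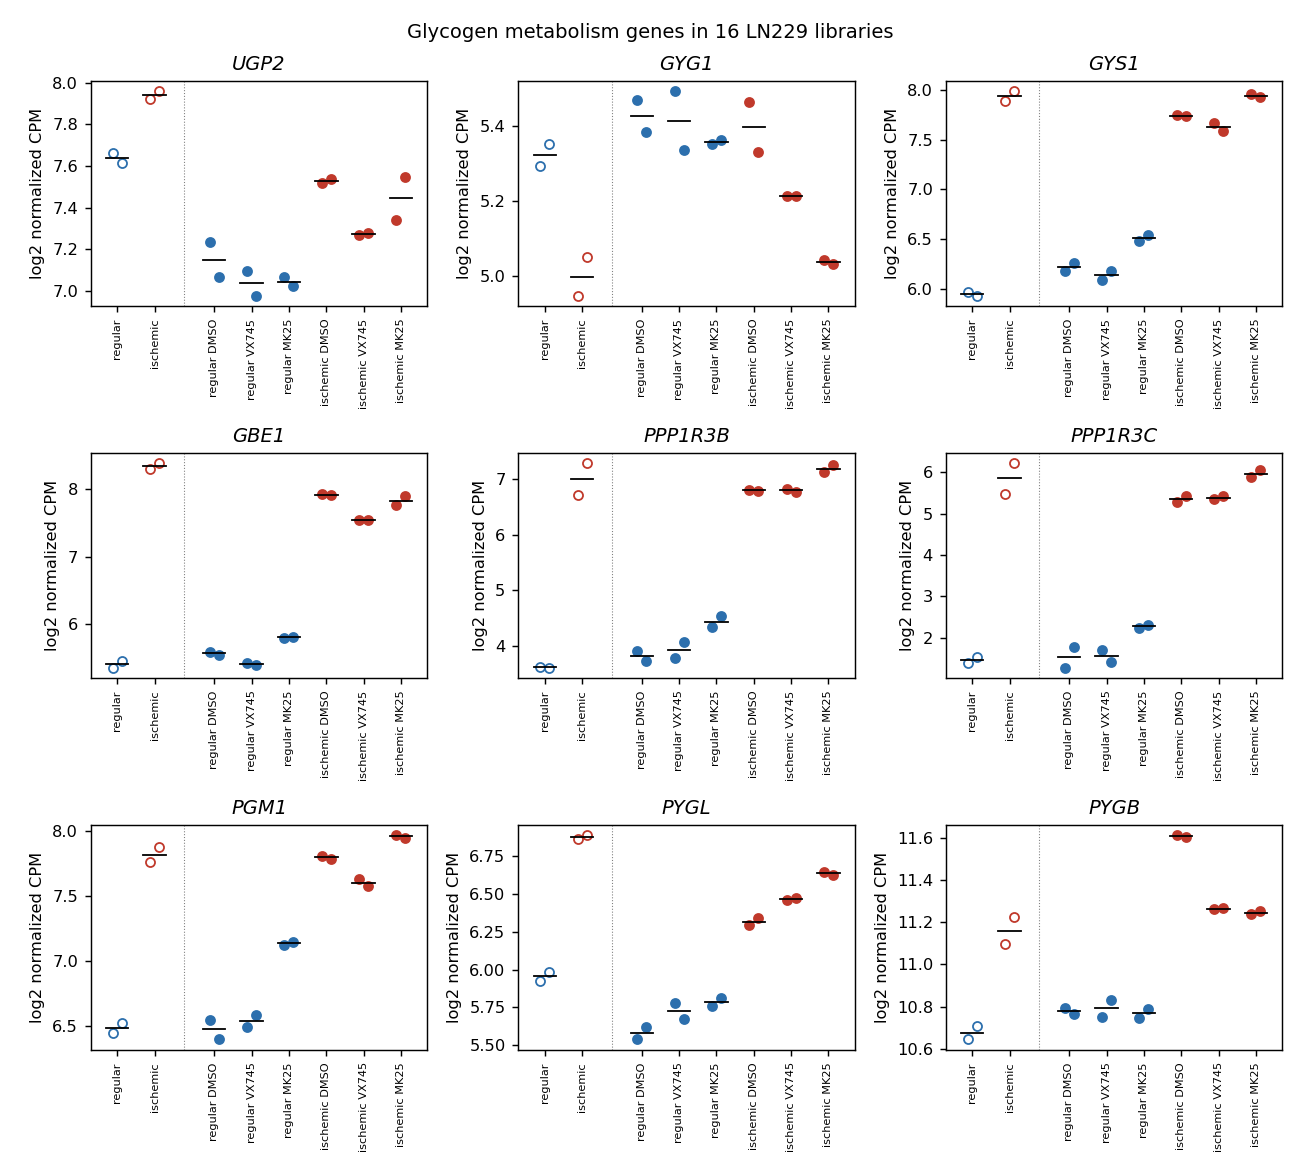
Level of each gene in log2 normalized CPM (vertical axis, on its own scale in each panel) in every library of the 8 groups, with blue for regular and red for ischemic culture, open points for the first experiment and filled points for the second. Black lines are group means of 2 libraries, and the dotted line parts the 2 experiments, which were normalized separately. In the second experiment the regular and ischemic libraries are apart for every gene except *GYG1*.

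The largest differences were those of the phosphatase subunits. *PPP1R3C*, which encodes PTG, the subunit named for targeting the phosphatase to glycogen, was the member with the fewest reads in regular culture. Its level was 1.40 and 1.54 in the 2 untreated regular libraries and 5.48 and 6.23 in the 2 ischemic ones. The groups were far apart, although the ischemic replicates differed by more than those of any other member. *PPP1R3C* rose 20.9-fold in untreated cells (log2 fold change 4.39, SE 0.19, adjusted p = 1.14e-09 from limma), on 63 and 79 reads against 1232 and 1583.

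The second experiment gave values for 3 treatments. The level of *PPP1R3C* was 1.28 and 1.78 in regular DMSO, 1.69 and 1.40 in regular VX745, and 2.24 and 2.31 in regular MK25. The ischemic libraries stood at 5.29 and 5.43 with DMSO, 5.36 and 5.42 with VX745, and 5.89 and 6.05 with MK25. MK25 libraries were the highest in each culture, and no ischemic library came near a regular one. The log2 fold change between cultures was 3.83 in DMSO (SE 0.14, adjusted p = 1.06e-13 from limma), 3.84 with VX745 and 3.70 with MK25.

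*PPP1R3B* (identifier 79660), which encodes the subunit first described in liver, separated the cultures in every library as well. In untreated cells it stood at 3.63 and 3.61 in regular and at 6.71 and 7.29 in ischemic culture. It rose 10.4-fold there (log2 fold change 3.38, SE 0.14, adjusted p = 8.56e-10 from limma). With DMSO or an inhibitor, the 6 regular libraries lay between 3.73 and 4.53 with a median of 3.99, and the 6 ischemic ones between 6.76 and 7.24 with a median of 6.82. Its log2 fold changes of 2.98 in DMSO, 2.86 with VX745 and 2.74 with MK25 (SE 0.09 each) all passed the test.

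Among the synthesis genes, *GBE1* and *GYS1* rose in all 4 comparisons and *UGP2* and *GYG1* in none. *GBE1*, the branching enzyme, stood at 5.35 and 5.45 in untreated regular and at 8.30 and 8.39 in ischemic cells. This is a 7.67-fold rise (log2 fold change 2.94, SE 0.07, adjusted p = 7.16e-12 from limma), and the groups were far apart. Over the second experiment it ranged from 5.40 to 5.81 in regular and from 7.54 to 7.93 in ischemic libraries. The rise was 5.10-fold in DMSO, 4.39-fold with VX745 and 4.08-fold with MK25.

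*GYS1*, the glycogen synthase of tissues other than liver, stood at 5.97 and 5.93 in untreated regular cells and at 7.89 and 7.99 in ischemic cells. It rose 3.98-fold (log2 fold change 1.99, SE 0.07, adjusted p = 1.67e-10 from limma). The regular libraries of the second experiment lay between 6.09 and 6.54 and the ischemic ones between 7.59 and 7.96, with rises of 2.87-fold in DMSO, 2.82-fold with VX745 and 2.71-fold with MK25. Both genes were thus separated between cultures in every library of both experiments.

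*UGP2* (identifier 7360, chromosome 2, 63840969 to 63891560), which makes UDP-glucose for glycogen and for glycosylation, changed far less. Its level was 7.66 and 7.61 in untreated regular and 7.92 and 7.96 in ischemic cells, a log2 fold change of 0.30 (SE 0.06, adjusted p = 0.00112 from limma). The values in the second experiment were 0.38 in DMSO, 0.24 with VX745 and 0.40 with MK25, with adjusted p of 0.000122, 0.00615 and 7.24e-05 from limma, all below the fold change required. Without regular VX745 replicate 2 the adjusted p with VX745 was 0.0783 from limma.

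*GYG1* (identifier 2992, chromosome 3, 148991540 to 149031775), which encodes the primer protein glycogenin, was the member that went the other way. It stood at 5.29 and 5.35 in untreated regular and at 4.95 and 5.05 in ischemic cells, a log2 fold change of −0.33 (SE 0.08, adjusted p = 0.00397 from limma). In DMSO the groups overlapped, with 5.47 and 5.38 in regular and 5.46 and 5.33 in ischemic libraries, and the log2 fold change was −0.03 (SE 0.07, adjusted p = 0.723 from limma). With VX745 it was −0.20 (adjusted p = 0.0191 from limma) and with MK25 −0.32 (adjusted p = 0.000703 from limma). The adjusted p with VX745 was above 0.05 without either ischemic VX745 library or regular VX745 replicate 1, at up to 0.213 from limma. The library kit does not keep the strand, and 1649 bases of the exons of *GYG1* (21.8%) are also exons of *HLTF* on the other strand, so reads there cannot be told apart. The same holds for 4.8% of the exons of *PGM1* with *ITGB3BP* and for 4.3% and 4.0% of those of *PPP1R3B* and *PYGL* with noncoding genes. *HLTF* had log2 fold changes between cultures of 0.55 in untreated cells and 0.16, 0.45 and 0.30 in DMSO, VX745 and MK25.

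*PGM1* (identifier 5236, chromosome 1 of GRCh38, 63593411 to 63660245), the phosphoglucomutase that interconverts glucose 1-phosphate and glucose 6-phosphate, stood at 6.45 and 6.53 in untreated regular and at 7.76 and 7.88 in ischemic cells. It rose 2.51-fold (log2 fold change 1.33, SE 0.07, adjusted p = 7.26e-09 from limma). The rise was 2.50-fold in DMSO and 2.09-fold with VX745, while with MK25 the log2 fold change of 0.82 (SE 0.06, adjusted p = 1.30e-09 from limma) fell short of a fold change of 2. There the regular libraries stood at 7.13 and 7.15, above the 6.55 and 6.40 of regular DMSO.

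Neither phosphorylase gene reached a fold change of 2 in any of the 4 comparisons, though both were higher in each at an adjusted p under 0.05. *PYGL*, the isoform named for liver, stood at 5.93 and 5.99 in untreated regular and at 6.87 and 6.89 in ischemic cells, a 1.89-fold difference (log2 fold change 0.92, SE 0.07, adjusted p = 1.63e-07 from limma). The log2 fold changes in the second experiment were 0.74 in DMSO, 0.74 with VX745 and 0.85 with MK25 (SE 0.06 each), and its 6 regular libraries, at 5.54 to 5.81, lay below its 6 ischemic ones, at 6.29 to 6.65.

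*PYGB* (identifier 5834, chromosome 20, 25248085 to 25298012), the isoform named for brain, was separated between cultures in every library too. It stood at 10.64 and 10.71 in untreated regular and at 11.10 and 11.22 in ischemic cells, a 1.40-fold difference (log2 fold change 0.48, SE 0.08, adjusted p = 0.000143 from limma). In DMSO the difference was larger, at 1.78-fold (log2 fold change 0.83, SE 0.06, adjusted p = 8.82e-10 from limma), and with VX745 and MK25 the log2 fold changes were 0.47 and 0.48. The size rests on the processing. Over the alternatives the lowest log2 fold changes were 0.222 in untreated cells, 0.379 in DMSO, 0.217 with VX745 and 0.279 with MK25.

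**Figure D2:**
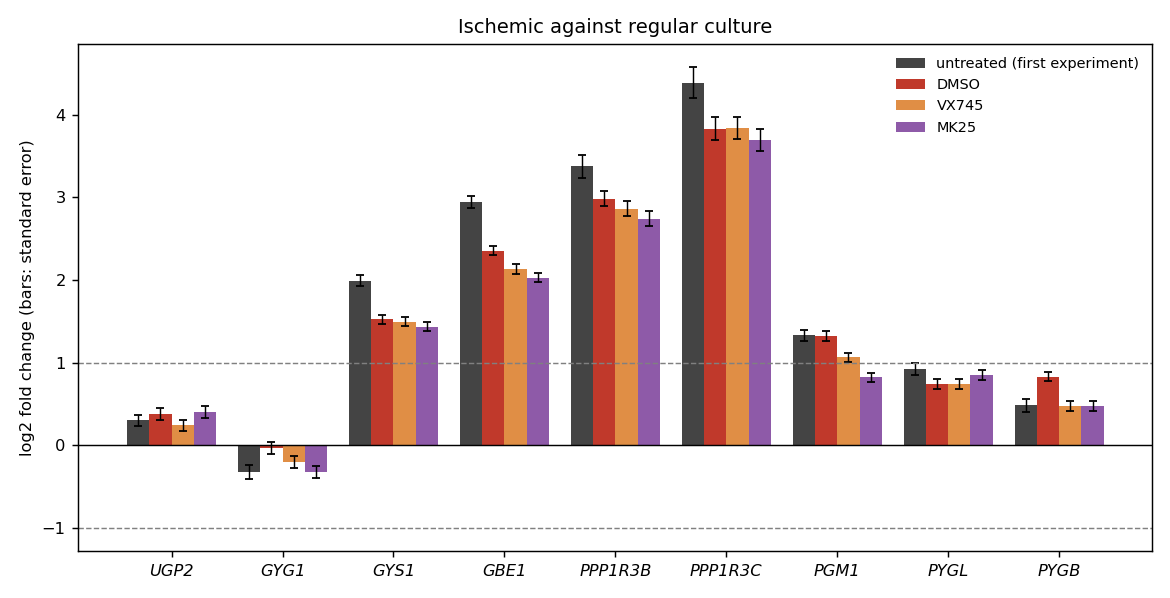
Log2 fold change of ischemic against regular culture (vertical axis) for each gene in the 4 comparisons, with bars for the estimate and error bars for its standard error from limma. Dashed lines mark a fold change of 2. *PPP1R3C* and *PPP1R3B* are highest in every comparison, followed by *GBE1* and *GYS1*, and the bars of *PYGL* and *PYGB* stay below the line.

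The synthesis and breakdown genes were also set side by side within each library, as a description. These values are not divided by gene length, so their shift between libraries can be read but not their sign. The mean log2 level of *UGP2*, *GYG1*, *GYS1* and *GBE1* went from 6.07 and 6.09 in untreated regular to 7.27 and 7.35 in ischemic libraries, and that of *PYGL* and *PYGB* from 8.29 and 8.35 to 8.98 and 9.06. The difference of these means, synthesis minus breakdown, was −2.22 and −2.26 in regular and −1.72 and −1.71 in ischemic libraries. It was therefore less negative in ischemic cells, with no overlap. Across the second experiment it ranged from −2.28 to −2.05 in 6 regular libraries (median −2.12) and from −1.96 to −1.79 in 6 ischemic ones (median −1.88).

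The synthase against a single phosphorylase gave a wider shift. *GYS1* minus *PYGL* was 0.04 and −0.06 in untreated regular and 1.03 and 1.10 in ischemic libraries, and in the second experiment 0.31 to 0.73 in regular and 1.12 to 1.46 in ischemic libraries. The 2 phosphorylase genes kept a wide gap, with *PYGL* minus *PYGB* between −4.72 and −4.23 in untreated cells and between −5.32 and −4.59 in the 12 other libraries. Over those 12 this last measure overlapped between cultures.

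**Figure D3:**
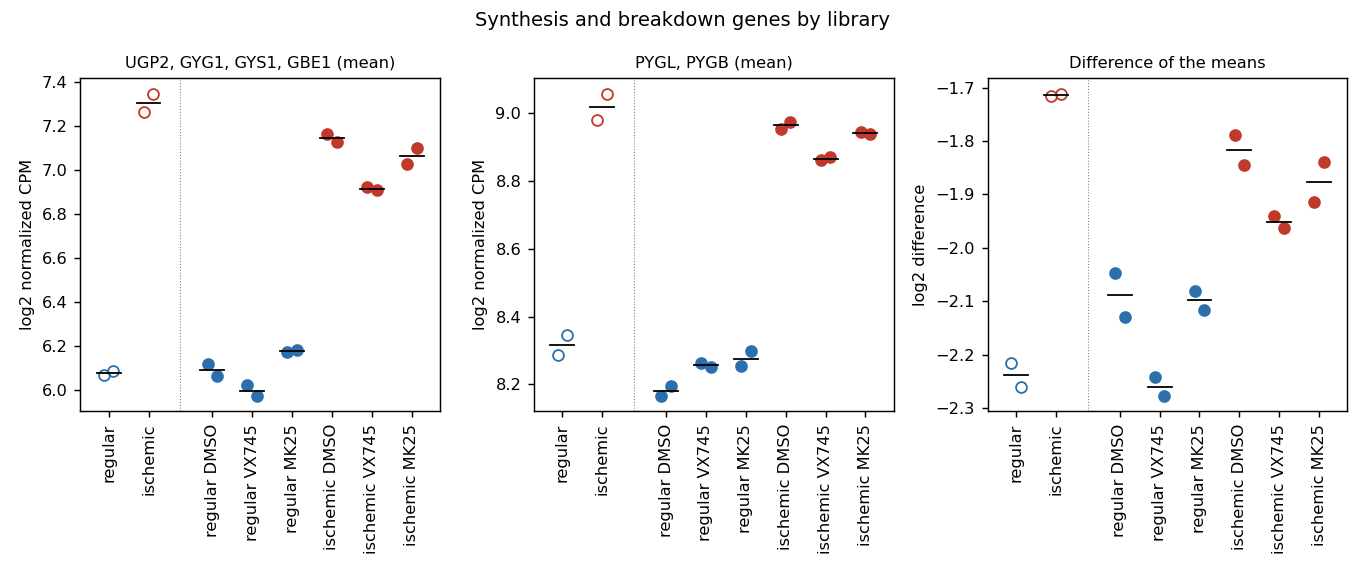
Mean log2 normalized CPM of the 4 synthesis genes (left), of the 2 phosphorylase genes (middle) and their difference on the log2 scale (right) in every library, with blue for regular and red for ischemic culture, open points for the first experiment, filled points for the second and black lines for means of 2 libraries. The difference lies between −2.28 and −2.05 in regular and between −1.96 and −1.79 in ischemic libraries of the second experiment.

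Levels of different genes were compared per kilobase of summed exons. In untreated regular cells *PYGB* had 367 CPM per kilobase, followed by *UGP2* (29.3), *PGM1* (22.0), *GYS1* (14.6), *PYGL* (13.7), *GBE1* (9.09), *GYG1* (5.31), *PPP1R3B* (2.15) and *PPP1R3C* (1.09). In untreated ischemic cells *PYGB* remained first at 513, and *GBE1* was second at 69.8, ahead of *GYS1* (58.0), *PGM1* (55.4) and *UGP2* (36.2). *GYG1* was last at 4.24, below *PPP1R3C* at 22.8. With the longest transcript as the length, *PYGL* (22.2 CPM per kilobase) came before *GYS1* (17.3) in regular cells, and in ischemic cells *PGM1* (85.0) came before *GYS1* (68.9) and *PPP1R3B* (23.2) before *PPP1R3C* (22.8), so the order within these pairs rests on the length used. The second place also differed between experiments, as *PGM1* held it in both DMSO groups by either length. By summed exons *PGM1* had 21.8 against 20.9 for *UGP2* in regular DMSO, and 54.6 against 52.0 for *GBE1* in ischemic DMSO.

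**Figure D4:**
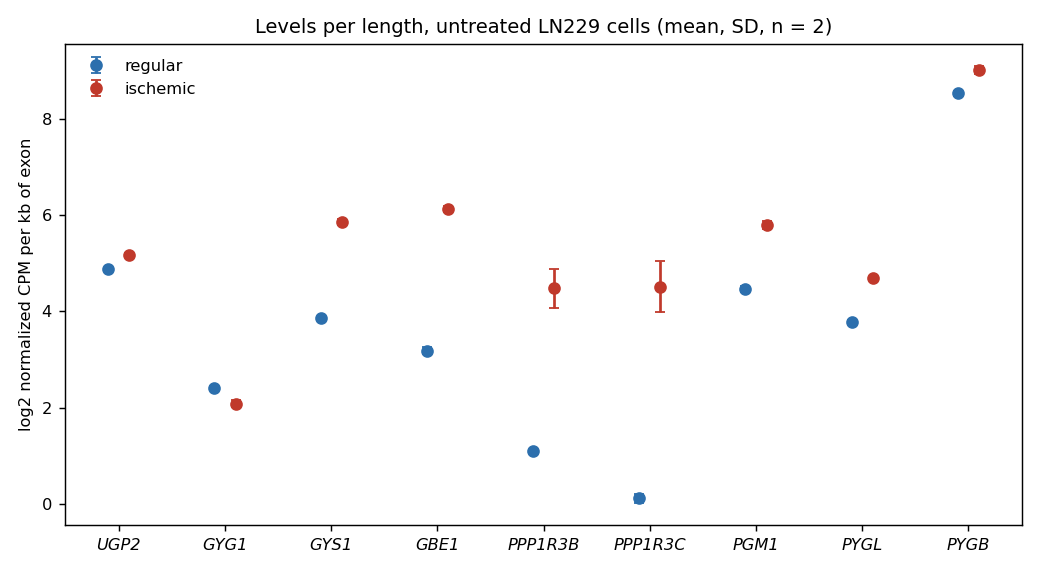
Level per length in log2 normalized CPM per kilobase of exon (vertical axis) for each gene in untreated regular (blue) and ischemic (red) cells, as mean and SD of 2 libraries. *PYGB* is highest in both cultures, and *GYG1* is the gene whose ischemic value lies below its regular one.

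The level of each gene over the 6 groups of the second experiment fell into an ischemic and a regular block for all members except *GYG1*. Within the ischemic block MK25 was highest for *GYS1*, *PPP1R3B*, *PPP1R3C*, *PGM1* and *PYGL*, and DMSO was highest for *UGP2*, *GBE1* and *PYGB*. Within the regular block MK25 was highest for *GYS1*, *GBE1*, *PPP1R3B*, *PPP1R3C*, *PYGL* and *PGM1*. Neighbouring groups whose libraries overlapped were ischemic DMSO and ischemic MK25 for *UGP2*, ischemic DMSO and ischemic VX745 for *PPP1R3B* and *PPP1R3C*, regular MK25 and regular VX745 for *UGP2* and *PYGL*, regular DMSO and regular MK25 for *PYGB*, and regular DMSO and regular VX745 for *GYS1*, *PPP1R3B*, *PPP1R3C*, *PGM1*, *PYGB* and *GYG1*. For *GYG1* the highest 4 groups overlapped one with the next, and ischemic VX745 (5.21 in both libraries) and ischemic MK25 (5.04 and 5.03) lay below them.

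Each inhibitor was then compared with DMSO in the same culture, where the fold change required for a call is 1.5 and the limit on the adjusted p the same as before. The comparisons share the DMSO libraries. With VX745 in ischemic culture 0 of the 9 rose or fell by limma and 0 with voom on recovered reads (limma's method for counts), and at an unadjusted p under 0.05 1 was higher and 5 were lower. Of all genes 4.35% rose and 0.906% fell, and this balance rests on the scaling, since 610 genes rose and 127 fell as deposited but 322 and 192 after quantile normalization. At an adjusted p under 0.05 and any size, *GBE1*, *PYGB*, *UGP2* and *PGM1* were lower, where 14.0% of all genes were higher and 14.9% lower.

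*GBE1* stood at 7.93 and 7.91 in ischemic DMSO and at 7.54 in both ischemic VX745 libraries (log2 fold change −0.38, SE 0.06, adjusted p = 9.91e-05 from limma). *PYGB* stood at 11.62 and 11.60 against 11.26 and 11.27 (log2 fold change −0.34, SE 0.06, adjusted p = 0.000362 from limma). For both genes the groups were apart and the replicates within 0.02 of each other. *UGP2* had a log2 fold change of −0.25 (adjusted p = 0.0119 from limma) and *PGM1* of −0.20 (adjusted p = 0.0183 from limma). The calls of *UGP2* and *PGM1* were lost whichever of the 4 libraries was left out, with an adjusted p of 0.055 to 0.0733 and of 0.0615 to 0.141 from limma. After quantile normalization the adjusted p was 0.222 for *PYGB*, 0.136 for *UGP2* and 0.253 for *PGM1* from limma.

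*PPP1R3C* and *PPP1R3B* stayed within the spread of the replicates, with log2 fold changes of 0.03 (SE 0.14) and −0.01 (SE 0.09). Under regular culture VX745 left 0 of the 9 genes past the test by limma and 0 by voom on recovered reads, with 1 higher and 1 lower at an unadjusted p under 0.05. There 0.0642% of all genes rose and 0.0357% fell, and 0.178% were higher and 0.157% lower at any size. Members' log2 fold changes ran from −0.16 for *GBE1* to 0.14 for *PYGL*.

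MK25 raised *PPP1R3C* in ischemic culture, from 5.29 and 5.43 in DMSO to 5.89 and 6.05 (log2 fold change 0.62, SE 0.14, adjusted p = 0.0018 from limma). It was the single member of 9 past the fold change, where 7.02% of all genes rose and 2.65% fell (985 and 371 genes, but 629 and 486 after quantile normalization). Its fold change fell below 1.5 without ischemic DMSO replicate 1 (log2 fold change 0.55) and without ischemic MK25 replicate 2 (0.54). At an adjusted p under 0.05 and any size *PPP1R3B* (0.38), *PYGL* (0.32), *GYS1* (0.20) and *PGM1* (0.16) were also higher, and *PYGB* (−0.36) and *GYG1* (−0.36) were lower, as log2 fold changes, where 19.8% of all genes were higher and 22.0% lower. *PGM1* was lost whichever of the 4 libraries was left out (adjusted p of 0.0856 to 0.147 from limma), and *GYS1* without ischemic DMSO replicate 2 or ischemic MK25 replicate 1 (up to 0.0597 from limma).

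*PYGB* stood at 11.24 and 11.25 in ischemic MK25 libraries against 11.62 and 11.60 in ischemic DMSO (SE 0.06, adjusted p = 9.93e-05 from limma). The 2 phosphorylase genes thus had opposite signs in this comparison, as *PYGL* stood at 6.65 and 6.63 against 6.29 and 6.34. For *PYGB* the log2 fold change was −0.05 (adjusted p = 0.491 from limma) after quantile normalization, the scaling that moved it most.

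In regular culture MK25 raised *PPP1R3C*, *PGM1* and *PPP1R3B*, where 1.88% of all genes rose and 0.606% fell. *PPP1R3C* went from 1.28 and 1.78 to 2.24 and 2.31 (log2 fold change 0.75, SE 0.14, adjusted p = 0.0016 from limma), on 74 and 83 reads against 98 and 112. *PGM1* went from 6.55 and 6.40 to 7.13 and 7.15 (log2 fold change 0.66, SE 0.06, adjusted p = 4.87e-07 from limma). *PPP1R3B* went from 3.91 and 3.73 to 4.35 and 4.53 (log2 fold change 0.62, SE 0.09, adjusted p = 0.000188 from limma). The groups did not overlap for any of the 3.

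These calls lie close to the fold change required. Without regular DMSO replicate 2, *PPP1R3B* (0.53) was below it, *PGM1* missed it by less than the rounding of the values, and 1 of the 3 was left. *PPP1R3C* was lost without regular DMSO replicate 1 (0.50) and, at an adjusted p of 0.0599 from limma, when the fit held the compared groups alone, and *PPP1R3B* was lost without regular MK25 replicate 2 (0.53). *GYS1* (0.29), *GBE1* (0.24) and *PYGL* (0.21) were also higher at an adjusted p under 0.05 and any size, where 7.00% of all genes were higher and 5.21% lower. *GBE1* was lost without regular DMSO replicate 2 (adjusted p = 0.0653 from limma), and *PYGL* without regular DMSO replicate 1 or either regular MK25 library (up to 0.132 from limma). With the compared groups alone they had an adjusted p of 0.0929 and 0.151 from limma. The hypoxia genes *PDK1* and *VEGFA* rose in this comparison too, by 1.86 and 0.92 on the log2 scale, *CA9* held 91 and 111 reads against 7 and 28 in DMSO, and the part of this in the members' values was not tested.

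**Figure D5:**
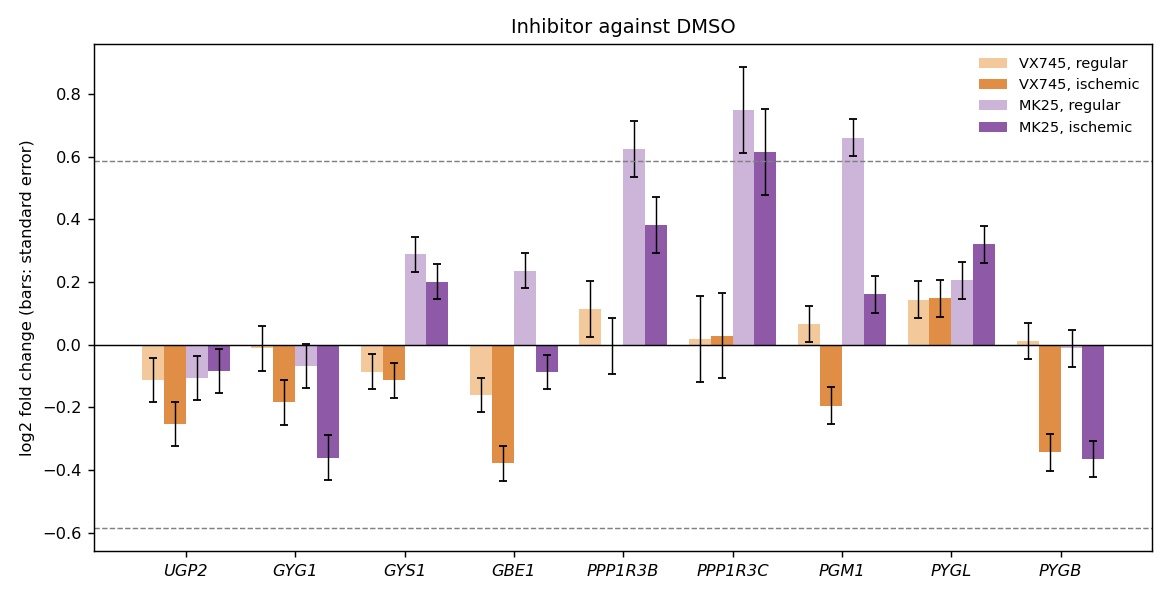
Log2 fold change of each inhibitor against DMSO (vertical axis) for each gene, with pale bars for regular and dark bars for ischemic culture, orange for VX745 and purple for MK25, and error bars for the standard error from limma. Dashed lines mark a fold change of 1.5, which *PPP1R3C* passes with MK25 in both cultures and *PPP1R3B* and *PGM1* with MK25 in regular culture.

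Whether an inhibitor had another effect in ischemic than in regular culture was tested by an interaction, with a negative value where the difference from DMSO was lower in ischemic culture. For VX745 2 of the 9 passed an adjusted p under 0.05, where 11.8% of all genes did. *PYGB* had an interaction of −0.36 (SE 0.08, adjusted p = 0.0107 from limma) and *PGM1* of −0.26 (SE 0.08, adjusted p = 0.0484 from limma). For MK25 4 of the 9 passed, where 24.4% of all genes did. *PGM1* had −0.50 (SE 0.08, adjusted p = 0.00036 from limma), *PYGB* −0.35 (adjusted p = 0.00487 from limma), *GBE1* −0.32 (adjusted p = 0.00614 from limma) and *GYG1* −0.29 (adjusted p = 0.043 from limma). The 2 calls for VX745 were not stable, as the adjusted p of *PGM1* was above 0.05 without 7 of the 8 libraries in turn (0.0527 to 0.179, regular DMSO replicate 1 being the exception), and that of *PYGB* without ischemic DMSO replicate 1 (0.0548), ischemic VX745 replicate 1 (0.0607) or ischemic VX745 replicate 2 (0.0518), all from limma. Likewise *GYG1* with MK25 was lost without 6 of 8 libraries (0.0799 to 0.184 from limma), and was kept without regular DMSO replicate 1 or ischemic DMSO replicate 2. Neither interaction of *PPP1R3B*, *PPP1R3C*, *GYS1*, *PYGL* or *UGP2* passed the test.

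The pattern of *PGM1* differed between the inhibitors. With MK25 it was higher by 0.66 in regular and by 0.16 in ischemic culture on the log2 scale, whereas with VX745 it was higher by 0.07 in regular culture and lower by 0.20 in ischemic culture (−0.20 as a log2 fold change). *PYGB* had values close to 0 in regular culture with both inhibitors (0.01 and −0.01) and of −0.34 and −0.36 in ischemic culture. After quantile normalization *PYGB* had interactions of −0.16 with VX745 (adjusted p = 0.222 from limma) and −0.10 with MK25 (adjusted p = 0.392 from limma), and neither passed the test.

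Other genes of glycogen metabolism were counted from a list of 27, of which 22 were measured, and *GYS2*, *GYG2*, *PYGM*, *PPP1R3A* and *NHLRC1* were not listed in either experiment. Between cultures 3 of the 22 rose in each of the 4 comparisons, and 1 fell in DMSO. Of all genes 11.3%, 9.03%, 9.28% and 8.56% rose in untreated cells, DMSO, VX745 and MK25, and 8.11% fell in DMSO. The median log2 fold change of the 22 was 0.09 in untreated cells and −0.16, −0.10 and −0.11 in DMSO, VX745 and MK25. The 3 that rose were *STBD1*, which tethers glycogen to membranes for its delivery to lysosomes, and the phosphatase subunits *PPP1R3E* and *PPP1R3G*.

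*STBD1* stood at 1.33 and 1.13 in untreated regular and at 2.84 and 3.23 in ischemic libraries (log2 fold change 1.81, SE 0.19, adjusted p = 2.57e-06 from limma). *PPP1R3E* stood at 2.73 and 2.85 against 4.58 and 4.10 (log2 fold change 1.55, SE 0.15, adjusted p = 1.61e-06 from limma). *PPP1R3G* held 6 and 4 reads in untreated regular and 88 and 44 in ischemic libraries, and in the second experiment between 0 and 12 reads in regular and between 68 and 146 in ischemic libraries. It thus sat near the floor in regular culture, and no fold change is given for it.

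*PPP1R3D*, another subunit of the family, fell in DMSO, and in untreated cells had a log2 fold change of −0.78 that did not reach the fold change required. It stood at 3.27 and 3.61 in regular DMSO and at 2.21 and 2.31 in ischemic DMSO (log2 fold change −1.18, SE 0.12, adjusted p = 1.25e-07 from limma). In ischemic culture it rose with VX745 to 2.95 and 3.01 (log2 fold change 0.72, adjusted p = 0.00035 from limma) and with MK25 to 3.20 and 3.11 (log2 fold change 0.90, adjusted p = 1.88e-05 from limma). Its interaction with culture was 0.89 for VX745 (adjusted p = 0.00387 from limma) and 1.10 for MK25 (adjusted p = 0.000216 from limma).

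Of the same 22, *PGM2L1*, a relative of the phosphoglucomutases, rose with VX745 in ischemic culture (log2 fold change 0.61, SE 0.14, adjusted p = 0.00346 from limma), and *PPP1R3E* rose with MK25 there (1.07, SE 0.09, adjusted p = 1.11e-07 from limma). With *PPP1R3D* this made 2 of the 22 for each inhibitor, where 4.35% (VX745) and 7.02% (MK25) of all genes rose. In regular culture 0 were called with VX745 by limma, with 2 higher and 2 lower at an unadjusted p under 0.05, and 1, *PPP1R3G*, rose with MK25, on 10 and 12 reads against 5 and 2 in DMSO. In that culture 0.0642% of all genes rose with VX745 and 1.88% with MK25. For MK25, the interaction passed in 6 of the 22, where 24.4% of all genes passed. The 6 include *PPP1R3D*, *PPP1R3E* (0.72) and *PPP1R3F* (0.42) with a positive sign. They also include the phosphorylase kinase subunit *PHKB* (−0.34) and the phosphatase catalytic subunit *PPP1CA* (−0.23) with a negative one.

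The likeness of other genes to 3 members was described by Pearson's r over the 12 libraries of the second experiment. These fall into 2 clusters by culture, so r mostly follows that separation. Among 10053 genes whose mean log2 value reached 3, the genes most like *GYS1* by Pearson's r were *AARS1* (0.998), *FKBP9P1* (0.997) and *DOCK11* (0.997). Those most like *PPP1R3C* were *NRN1* (0.998), *MXI1* (0.996) and *ARFGEF3* (0.996), and those most like *PYGL* included *ZNF76* (0.995) and *NOL3* (0.992).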

How the data were processed

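RNA of LN229 cells was sequenced as 16 paired-end libraries made with a kit that does not keep the strand. The authors used Galaxy to trim and to align with HISAT2 on GRCh38, and they normalized counts per Entrez gene with edgeR. They deposited log2 normalized CPM. The counting program is not given in the sources used here. Identifiers were matched to symbols for 99.4% and 99.3% of genes. The log2 values were used as deposited, without pseudocount. Undoing the logarithm gave whole reads (tolerance 0.1) for 100% of values in every library, between 20122017 and 37562668 reads per library.

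Fold changes, SE and two-sided p-values came from limma 3.58.1 in R 4.3.3, with 1 mean per group and the variance trended on the mean level, separately for the 4 libraries of the first and the 12 of the second experiment, with Benjamini-Hochberg adjustment over all genes of a table. The edgeR test of the study was not run here, and voom on the recovered reads was the alternative based on counts. The model was run on simulated counts in which 200 genes changed. Far more genes differ between these cultures, so that run checks the code and does not bear on the results. Genes were called under an adjusted p of 0.05 if the fold change reached 2 (cultures) or 1.5 (inhibitors), and at any size for the 2 interactions. All 9 members are named in every comparison, with those of 27 other glycogen genes called in any, and the 3 most alike of 3 members, except 2 genes that are not reported here. The members, lists and tests were chosen with earlier results of these data known. Exon lengths came from GENCODE v44 and promoters from RefSeq GRCh38.p14. Alternatives were a mean of at least 1 CPM, median centring, quantile normalization, no variance trend, the replicate block, the compared groups alone, voom on recovered reads, any fold change, transcript length and each library left out. Figures were drawn with Python 3.11.15 and matplotlib 3.10.9.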

Additional observations from a re-analysis of the deposited data

Results flagged for a closer look

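For 6 pairs of a gene and an inhibitor, the difference from DMSO was not the same in the 2 cultures by limma's test of the interaction, which is the measure that singled them out. With VX745 the interaction was −0.261 for *PGM1* and −0.356 for *PYGB* on the log2 scale, each lower in ischemic culture. With MK25 it was −0.500 for *PGM1*, −0.352 for *PYGB*, −0.323 for *GBE1* and −0.291 for *GYG1*. *PGM1* with MK25 passed under all 15 alternatives (adjusted p from 0.000144 to 0.011 from limma), while *PGM1* with VX745 passed in 3 of 15 and *GYG1* with MK25 in 6 of 15. No group holds 4 or more libraries, so single libraries were not tested for standing apart.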

How the results depend on the processing

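Between cultures the direction and the call of members were the most stable, while sizes moved more, as given for *PYGB* above. Over the alternatives other than the fold change required, 385 of 387 values of members kept direction and side of the threshold, and the other 2, both of *GYG1* in DMSO, turned positive (−0.0965 to 0.0372 with a library left out). Counts of members called between cultures did not change with a library left out (5, 5, 5 and 4). Without the fold change required they were 9, 8, 9 and 9 in untreated, DMSO, VX745 and MK25, and for inhibitors 4 (VX745, ischemic), 7 (MK25, ischemic) and 6 (MK25, regular), beside the shares of all genes given with these comparisons above. Of these calls at any size, some of *UGP2*, *PGM1*, *GYS1*, *GBE1*, *PYGL* and *GYG1* were lost with a library left out, as given there. With a library left out, 0 to 1 members were called for MK25 in ischemic culture (0 without ischemic DMSO replicate 1 or ischemic MK25 replicate 2), 1 to 3 for MK25 in regular culture (1 without regular DMSO replicate 2), 0 to 2 for the VX745 interaction (0 without ischemic DMSO replicate 1 and either ischemic VX745 library) and 3 to 4 for the MK25 interaction. Quantile normalization gave 0 members for the VX745 and 1 for the MK25 interaction. For the VX745 interaction 1 member was left with no variance trend, with the replicate block, with the compared groups alone and with voom on recovered reads, and 3 passed after median centring, *GBE1* being added (−0.241, adjusted p = 0.0475 from limma). Of members' values, 368 of 396 for inhibitors and 223 of 270 for interactions kept direction and side of the threshold, where the fold change required counts as part of the threshold. The causes were not tested.

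Replicate numbers did not pair the libraries throughout the second experiment, where same-numbered libraries of 2 groups deviated together with r over 0.1 in 4 of 15 pairs (−0.266 to 0.325). In the first the only pair gave 0.271, and a single pair cannot show whether the numbers pair libraries. Under the replicate block *PGM1* with VX745 had an interaction of −0.261 at an adjusted p of 0.0521 from limma, and no other call of a member changed.

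With a library left out, *PPP1R3C* turned to −0.24 in the VX745 interaction and to −0.232 with VX745 in regular culture, the largest such values. None of the values that changed sign was called. After quantile normalization they were, for VX745 in ischemic culture, *PPP1R3B* 0.0692, for MK25 in ischemic culture, *UGP2* 0.0413 and *GBE1* 0.0253, for VX745 in regular culture, *GYG1* 0.0103 and *PPP1R3C* −0.0155, for MK25 in regular culture, *PYGB* 0.0488, and for the VX745 interaction, *GYS1* 0.0467. Median centring gave −0.0131 for *PPP1R3C* and −0.0184 for *PYGL* in that interaction, and voom −0.0315 for *PPP1R3C*. With a library left out, the values ran, for VX745 in ischemic culture, *PPP1R3B* −0.0378 to 0.0277, *PPP1R3C* −0.0383 to 0.0973, and for MK25 in ischemic culture, *UGP2* −0.185 to 0.0182, and for VX745 in regular culture, *GYG1* −0.0909 to 0.0665, *PPP1R3C* −0.232 to 0.27, *PYGB* −0.029 to 0.0518, *PGM1* −0.01 to 0.142, *PPP1R3B* −0.024 to 0.252, and for MK25 in regular culture, *PYGB* −0.0331 to 0.00835, and for the VX745 interaction, *GYS1* −0.0748 to 0.0216, *PPP1R3C* −0.24 to 0.261, *PYGL* −0.049 to 0.0589, *PPP1R3B* −0.257 to 0.0189, and for the MK25 interaction, *UGP2* −0.0784 to 0.125, *PPP1R3C* −0.385 to 0.117.

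Over all genes, VX745 in regular culture called 9 up and 5 down, but 73 and 70 without regular DMSO replicate 1 and 2 and 3 with voom, MK25 in regular culture called 264 and 85, but 372 and 174 without regular DMSO replicate 1, and the VX745 interaction 811 and 842, but 384 and 210 with no variance trend and 327 and 274 without ischemic VX745 replicate 1. Groups of 2 libraries limit the spread that can be estimated, and *PPP1R3C* and *PPP1R3G* in regular culture rest on few reads.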
